A study of Mus musculus with 6 samples.

Results

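The genes described here encode the machinery that copies DNA and part of the machinery that makes its building blocks. The list of 38 was given by symbol, and each gene was represented by the probe set that the array annotation assigns to that gene alone, with the highest mean where a gene had several. All 38 were found, among 19937 genes measured. The samples were whole mammary tumours, 1 from each of 6 female FVBN mice carrying the MMTV-PyMT transgene, in which the promoter of mouse mammary tumour virus directs the polyoma middle T oncogene to the mammary epithelium. Tumours were assessed ahead of dosing, at an age of 75 to 90 days. Of these, 3 received the vehicle DMSO and 3 received TMP195, an inhibitor of the class IIa histone deacetylases, at 50 mg/kg once a day into the abdomen. All 6 animals thus carried the transgene, and no normal mammary gland was compared. The descriptions of the study differ on the length of dosing, with 5 days in one place and 2 weeks in another. RNA was measured on Affymetrix arrays, and values are log2 of the deposited intensity, on which a step of 1 is a doubling.

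Before a cell enters S phase, the origin recognition complex, Cdc6 and Cdt1 load rings of Mcm proteins onto origins of replication. Cdc45 and the GINS complex turn these rings into active helicases, the primase and DNA polymerase alpha lay down primers, and DNA polymerases delta and epsilon extend them while held by the sliding clamp Pcna, which the Rfc complex loads. Ribonucleotide reductase and thymidylate synthase supply the deoxynucleotides. Many of these genes are transcribed as cells pass from G1 into S phase, under the control of E2F transcription factors, so their level in a tumour is widely read as a measure of how many of its cells are cycling. In whole tumours, fewer cycling cells and less of a transcript per cell cannot be told apart.

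The sequence around the start sites of these genes was searched for the binding words of E2F factors. RefSeq promoters of assembly GRCm38.p6, each running from 250 bases before to 50 bases after a start site, were held for 31 of the 38 genes, in 36 windows. The letters searched on both strands were TTTGGCGC, TTTCCCGC, TTTGCCGC and TTTCGCGC. At least 1 of these words was found for 13 of 31 genes (41.9%), against 541 of 15563 genes on the array (3.48%), and 2.26% of all 32851 promoters held one. Many of these genes are known to be under E2F control, so this share describes the list of genes. The part of E2F factors in their levels in these tumours was not tested. The following windows show 250 bases before the start site, 5′ to 3′, for an origin-binding subunit, a licensing factor, a pair of helicase subunits and the polymerase that starts synthesis, with the E2F words in capitals.
Orc1, chr4:108579204-108579453, plus strand: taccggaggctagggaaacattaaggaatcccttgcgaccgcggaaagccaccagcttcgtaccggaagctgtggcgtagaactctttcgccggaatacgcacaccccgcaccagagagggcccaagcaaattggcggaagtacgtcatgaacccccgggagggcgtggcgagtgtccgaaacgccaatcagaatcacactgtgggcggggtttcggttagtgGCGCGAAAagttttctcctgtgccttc
Cdc6, chr11:98907901-98908150, plus strand: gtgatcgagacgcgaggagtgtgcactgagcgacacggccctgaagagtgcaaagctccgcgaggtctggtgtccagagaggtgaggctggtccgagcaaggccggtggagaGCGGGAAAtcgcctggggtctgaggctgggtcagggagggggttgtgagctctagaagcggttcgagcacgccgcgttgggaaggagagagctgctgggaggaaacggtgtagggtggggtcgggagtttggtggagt
Mcm5, chr8:75109259-75109508, plus strand: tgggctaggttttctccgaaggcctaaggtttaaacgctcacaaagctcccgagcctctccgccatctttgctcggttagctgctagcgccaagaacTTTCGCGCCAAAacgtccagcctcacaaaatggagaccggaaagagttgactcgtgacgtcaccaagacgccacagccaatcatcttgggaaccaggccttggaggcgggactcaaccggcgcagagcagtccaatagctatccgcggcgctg
Mcm6, chr1:128359706-128359955, minus strand: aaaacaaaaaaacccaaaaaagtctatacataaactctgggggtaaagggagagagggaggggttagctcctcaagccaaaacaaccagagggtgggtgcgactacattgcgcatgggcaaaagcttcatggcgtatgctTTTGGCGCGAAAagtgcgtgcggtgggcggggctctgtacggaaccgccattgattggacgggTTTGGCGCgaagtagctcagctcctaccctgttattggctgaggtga
Pola1, chrX:93632156-93632405, minus strand: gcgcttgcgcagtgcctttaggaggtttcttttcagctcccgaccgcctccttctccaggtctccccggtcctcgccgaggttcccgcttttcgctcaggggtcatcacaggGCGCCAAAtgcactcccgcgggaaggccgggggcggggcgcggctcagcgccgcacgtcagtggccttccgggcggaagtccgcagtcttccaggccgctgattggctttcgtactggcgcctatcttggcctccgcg
In Mcm5 and Mcm6 a pair of words overlap on opposite strands, and Mcm6 holds another word 47 bases before its start site. The gene for the small subunit of ribonucleotide reductase, Rrm2, had none of the E2F words in its window, and its CCAAT box is in capitals instead.
Rrm2, chr12:24708004-24708253, plus strand: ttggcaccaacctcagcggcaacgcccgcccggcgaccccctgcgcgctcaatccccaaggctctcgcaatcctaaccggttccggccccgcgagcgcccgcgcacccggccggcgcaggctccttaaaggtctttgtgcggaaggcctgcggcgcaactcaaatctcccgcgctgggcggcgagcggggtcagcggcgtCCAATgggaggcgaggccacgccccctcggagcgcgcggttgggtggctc
The CCAAT box, searched on both strands as CCAAT, was found for 21 of 31 genes (67.7%) against 41.7% of genes on the array, and in 37.4% of all promoters. A motif of many mitotic promoters, TTTGAA, was found for 5 of 31 (16.1%) against 17.3% of genes on the array, and in 17.9% of all promoters. The E2F words share letters and can overlap one another, and a match describes the sequence, not a bound site. The gap between the tumour where most were highest and the tumour where most were lowest had a median of 0.79 in the 13 genes with an E2F word and 0.86 in the 18 without.

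The 38 genes shared their extreme tumours with 1 exception. All 38 were highest in DMSO tumour 2, and 37 were lowest in TMP195 tumour 2. This pair of extremes was found in 8.76% of all 19937 genes. That exception was Gins3, which was lowest in DMSO tumour 3. TMP195 tumour 3 came second behind DMSO tumour 2 in 28 of 38 genes, where 7.64% of all genes showed that order. Averaged over the 38 genes, DMSO tumours 1, 2 and 3 stood at 7.39, 7.81 and 7.42 and TMP195 tumours 1, 2 and 3 at 7.33, 7.04 and 7.55. The groups therefore overlapped, with TMP195 tumour 3 above both DMSO tumours 1 and 3.

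**Figure D1:**
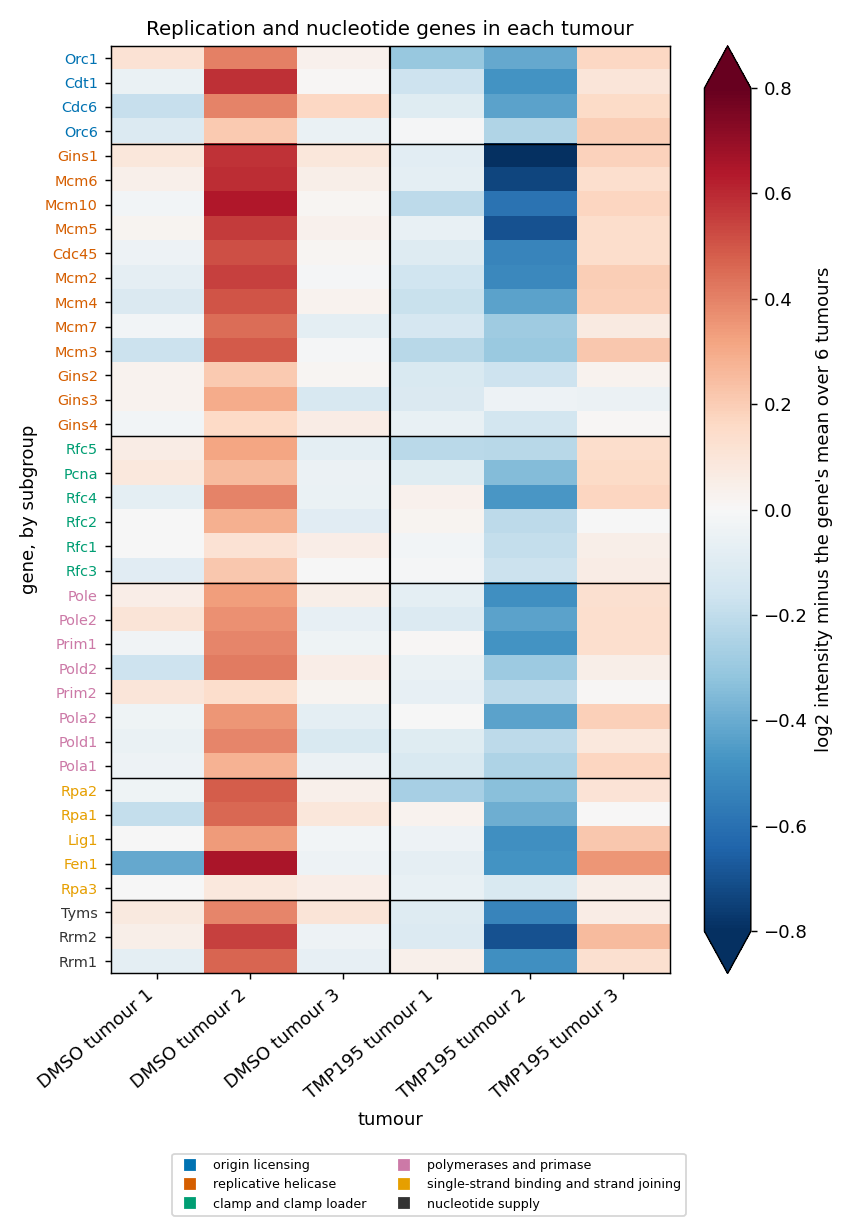
Log2 intensity of each of the 38 genes (rows, coloured by subgroup) in each of the 6 tumours (columns), shown as the distance from that gene's mean over all tumours. The column of DMSO tumour 2 is red throughout and that of TMP195 tumour 2 is blue, most faintly for Gins3, which is close to its mean there.

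The spread that came from these tumours was wide for most of the genes. The distance between the highest and the lowest tumour had a median of 0.81 over the 38 genes and 0.42 over all genes, and 25 of the 38 lay above the 80th percentile of all genes in this range.

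Between the dosing groups, all 38 genes had a lower mean under TMP195, where 50.5% of all genes did. Since the genes share their highest tumour and all but Gins3 their lowest, they are not 38 separate observations. The differences ran from -0.51 to -0.03, with a median of -0.21, and the median over all genes was -1.42e-03. No gene passed an adjusted p of 0.05 in limma, among the 38 or among all genes (0.0%). At an unadjusted p under 0.05 limma gave 0 of the 38 genes and 2.52% of all genes, 1.34% lower and the rest higher. The 95% interval of every one of the 38 differences held 0, and its half-width had a median of 0.42, wider than the 0.30 of all genes. Each difference was smaller than the span between tumours within at least 1 of the groups. Every TMP195 tumour lay below every DMSO tumour in 2 of the 38 genes, Tyms and Prim2, a share close to the 3.21% of all genes.

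**Figure D2:**
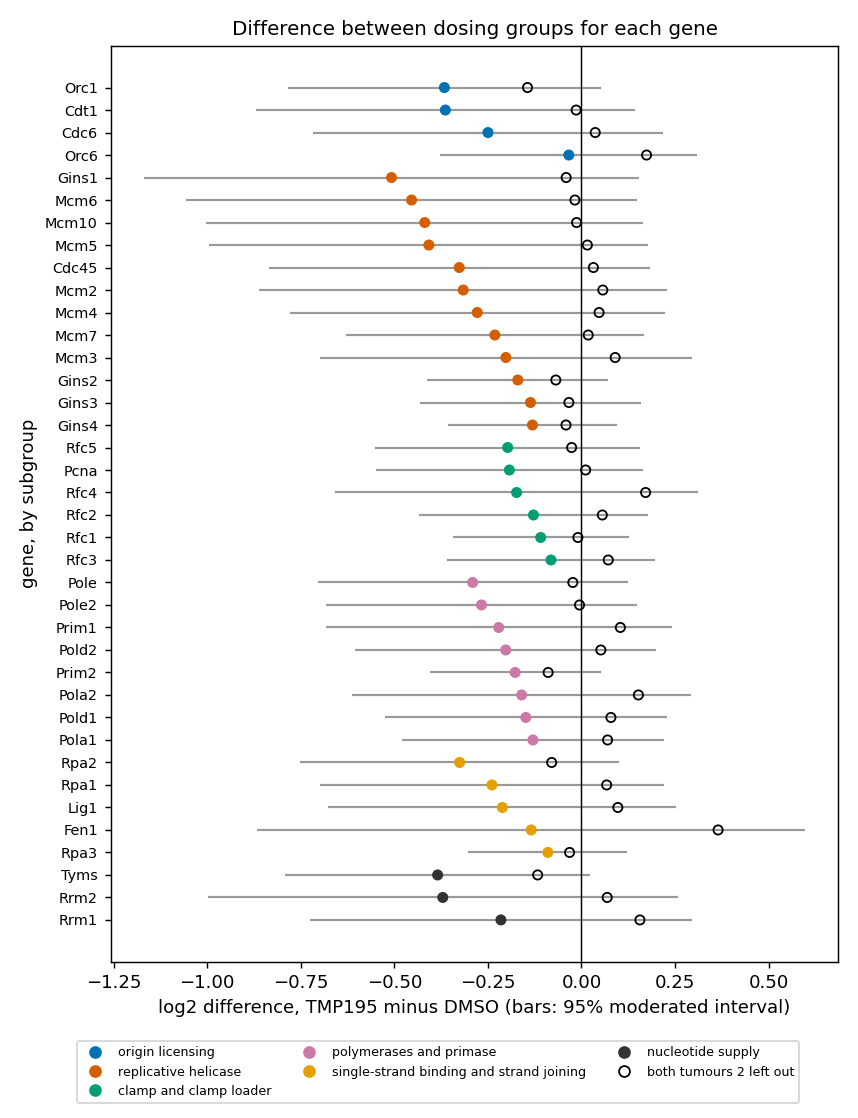
Difference between the group means (TMP195 minus DMSO, log2) of each gene over all 6 tumours (filled points, with 95% moderated intervals) and with DMSO tumour 2 and TMP195 tumour 2 left out (open circles). All filled points lie below 0 with intervals that reach across it, and 22 of the 38 open circles lie above 0. The open circles use a setting chosen after seeing the data.

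How far the means were lower depended on DMSO tumour 2 and TMP195 tumour 2. Without DMSO tumour 2 the median difference was -0.091, with 34 of 38 genes lower, and without TMP195 tumour 2 it was -0.11, again with 34 lower. With both left out, a setting chosen after seeing the data, 16 were lower and the median was 0.025. These were the highest DMSO and the lowest TMP195 tumour in 37 of the 38 genes. Leaving out either or both therefore had to raise those differences. Leaving out TMP195 tumour 3 moved the median the other way, to -0.34, and 6 of the 38 genes (Gins1, Mcm10, Orc1, Pole, Rpa2 and Tyms) then had an unadjusted p under 0.05 in limma, as did 564 of all 19937 genes, and none had an adjusted one. With limma's array weights, which gave TMP195 tumour 2 the lowest weight, 0.439, and DMSO tumour 2 the next lowest, 0.612, the median was -0.083.

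Origin licensing was represented by Orc1 and Orc6 of the origin recognition complex, Cdc6 and Cdt1. All 4 had lower means under TMP195, with a median of -0.31. Orc1, the largest subunit of the complex, was measured at 4.22, 4.51 and 4.14 under DMSO (tumours 1 to 3) and 3.81, 3.70 and 4.27 under TMP195 (tumours 1 to 3). TMP195 tumour 3 lay inside the DMSO range, and the difference was -0.37 ± 0.18 (SE). Orc1 was the dimmest of the 38, at percentile 31.0 of mean intensity. Cdt1, which brings the Mcm rings to origins, read 7.54, 8.18 and 7.61 under DMSO and 7.43, 7.12 and 7.69 under TMP195, a difference of -0.36 ± 0.21 (SE). Only DMSO tumour 2 stood above every TMP195 tumour in this gene. DMSO tumours 1 and 3 lay above TMP195 tumours 1 and 2 and below TMP195 tumour 3. Cdc6, the loading factor that works with Cdt1, had 5.83, 6.41 and 6.18 in the DMSO tumours and 5.92, 5.59 and 6.17 in the TMP195 tumours. Orc6 had the smallest difference of all 38 genes, -0.03 ± 0.14 (SE), with 7.40, 7.72 and 7.45 under DMSO and 7.50, 7.27 and 7.70 under TMP195. Its sign turned without DMSO tumour 2 (0.064) and without TMP195 tumour 2 (0.077). The licensing median was -0.14 without DMSO tumour 2 and -0.16 without TMP195 tumour 2.

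The replicative helicase held 12 genes, all with lower means under TMP195 and a median of -0.30. The 6 genes Mcm2, Mcm3, Mcm4, Mcm5, Mcm6 and Mcm7 encode the subunits of 1 ring. Mcm6 read 8.03, 8.57 and 8.03 under DMSO (tumours 1 to 3) and 7.91, 7.25 and 8.12 under TMP195 (tumours 1 to 3), a difference of -0.45 ± 0.25 (SE). Mcm5 read 8.09, 8.63 and 8.11 under DMSO and 8.02, 7.38 and 8.22 under TMP195. In Mcm5 and Mcm6 alike, 4 tumours lay within 0.21 of each other, with DMSO tumour 2 above them and TMP195 tumour 2 below. Mcm2, Mcm3 and Mcm4 had differences of -0.32 ± 0.23 (SE), -0.20 ± 0.21 (SE) and -0.28 ± 0.21 (SE). Mcm7 varied least of the ring, at 8.38, 8.85 and 8.32 under DMSO and 8.26, 8.12 and 8.47 under TMP195.

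The ring genes stood out evenly in one tumour and unevenly in the other. In DMSO tumour 2 they lay between 0.52 and 0.66 above the median of the other 5 tumours. In TMP195 tumour 2 they lay below it by amounts that ran from -0.26 for Mcm7 and -0.28 for Mcm3, through -0.46 for Mcm4 and -0.51 for Mcm2, to -0.73 for Mcm5 and -0.79 for Mcm6. Each of these values comes from 1 array, so their order has no replicate. Mcm10, which binds the ring and helps activate it, was measured at 6.45, 7.11 and 6.48 under DMSO and 6.26, 5.88 and 6.64 under TMP195, a difference of -0.42 ± 0.25 (SE). Cdc45, which completes the active helicase, differed by -0.33 ± 0.21 (SE).

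The 4 GINS genes encode the other part of the active helicase, as a complex of 4 subunits, and they did not vary alike. Gins1 had the widest range of all 38 genes, with 5.57, 6.06 and 5.57 under DMSO (tumours 1 to 3) and 5.40, 4.62 and 5.66 in the TMP195 tumours. Its value in DMSO tumour 2 was 2.71 times that in TMP195 tumour 2, and its difference between groups, -0.51 ± 0.28 (SE), was the largest of the 38. Gins1 was among the dimmer of these genes, at percentile 45.9 of mean intensity. With an offset of 16 added to every intensity its difference was -0.36, and those of Mcm6 (-0.42) and Mcm5 (-0.38) were larger. Gins2 (6.56, 6.74 and 6.55 under DMSO, 6.41, 6.37 and 6.56 under TMP195) spanned 0.37 in all. Gins4 spanned 0.31, from 7.70 in TMP195 tumour 2 to 8.01 in DMSO tumour 2. In Gins3 the TMP195 tumours were nearly equal, at 5.90, 5.98 and 5.97, and the DMSO tumours read 6.05, 6.32 and 5.90. In TMP195 tumour 2 the deviation from the other tumours was thus -0.95 for Gins1, -0.19 for Gins2, -0.16 for Gins4 and 0.0051 for Gins3. The helicase median was -0.11 without DMSO tumour 2, -0.15 without TMP195 tumour 2, and dropping TMP195 tumour 3 gave -0.46.

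**Figure D3:**
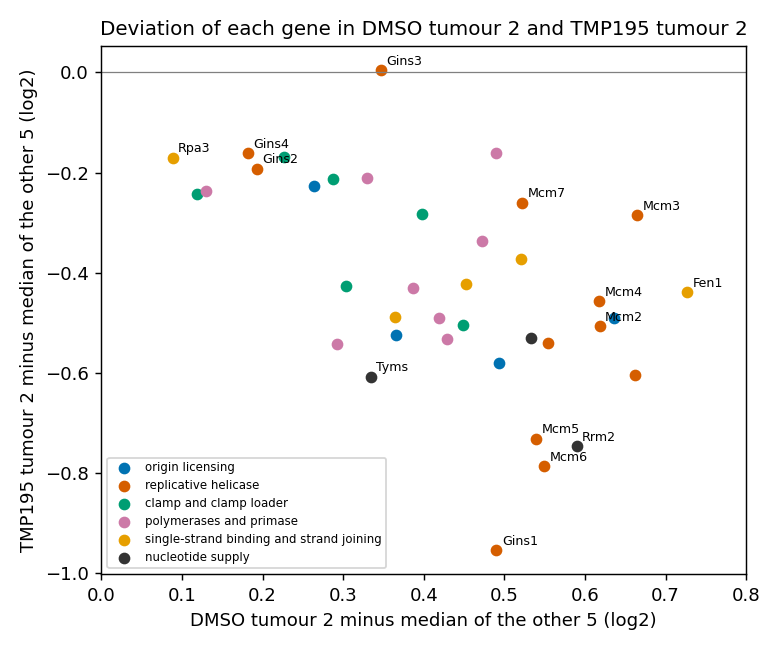
For each of the 38 genes, the log2 distance of DMSO tumour 2 (horizontal) and of TMP195 tumour 2 (vertical) from the median of the other 5 tumours, coloured by subgroup. All genes lie right of 0 and all but Gins3 below 0; the Mcm ring genes cluster between 0.52 and 0.66 on the horizontal axis and spread from -0.79 to -0.26 on the vertical one.

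Of the sliding clamp and its loader, all 6 genes had lower means under TMP195, with the median closest to 0 of any subgroup (-0.15). Pcna, the clamp itself, was measured at 9.83, 10.01 and 9.70 under DMSO (tumours 1 to 3) and 9.65, 9.41 and 9.91 under TMP195 (tumours 1 to 3). DMSO tumours 1 and 3 lay inside the TMP195 range, and the difference was -0.19 ± 0.15 (SE). A second probe set of Pcna gave -0.19 as well, with nearly the same value in every tumour. Rfc4, a small loader subunit, had the widest range of the loader, with 7.78, 8.26 and 7.81 under DMSO and 7.90, 7.40 and 8.04 under TMP195. Rfc1, the large subunit of the loader, spanned only 0.31, with 8.11, 8.23 and 8.17 under DMSO and 8.10, 7.92 and 8.17 under TMP195. Rfc5 differed by -0.20 ± 0.15 (SE), Rfc2 by -0.13 ± 0.13 (SE) and Rfc3 by -0.08 ± 0.12 (SE). The subgroup median was -0.049 without DMSO tumour 2, -0.047 without TMP195 tumour 2, and dropping TMP195 tumour 3 gave -0.23.

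Polymerase and primase genes, 8 in all, all had lower means under TMP195, with a median difference of -0.19. Pole, the catalytic subunit of polymerase epsilon on the leading strand, read 6.93, 7.21 and 6.92 in the DMSO tumours and 6.80, 6.39 and 7.01 in the TMP195 tumours, a difference of -0.29 ± 0.17 (SE). Its partner Pole2 differed by -0.27 ± 0.17 (SE). Prim1, the catalytic subunit, read 7.64, 8.06 and 7.64 under DMSO and 7.68, 7.19 and 7.81 under TMP195, so that the groups overlapped. Prim2, the large subunit, read 8.04, 8.08 and 7.96 under DMSO and 7.87, 7.73 and 7.95 under TMP195, a difference of -0.18 ± 0.10 (SE). The Prim2 groups did not overlap, but the highest TMP195 tumour and the lowest DMSO tumour were closer to each other than the tumours within either group. Pold1, the catalytic subunit of polymerase delta, differed by -0.15 ± 0.16 (SE) and its accessory subunit Pold2 by -0.20 ± 0.17 (SE). Pola1 and Pola2, of polymerase alpha, had differences of -0.13 ± 0.15 (SE) and -0.16 ± 0.19 (SE). In TMP195 tumour 2 Pola1 lay at -0.21 and Pole at -0.54 from the median of the other tumours. The median of the 8 was -0.062 without DMSO tumour 2 and -0.094 without TMP195 tumour 2.

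Replication protein A coats single-stranded DNA, and its 3 subunits had unequal spreads. Rpa2, the middle subunit, read 7.44, 7.96 and 7.52 under DMSO (tumours 1 to 3) and 7.21, 7.15 and 7.59 under TMP195 (tumours 1 to 3), a difference of -0.33 ± 0.18 (SE). Rpa1, the large DNA-binding subunit, differed by -0.24 ± 0.19 (SE). Rpa3, the smallest subunit, had the narrowest range of all 38 genes at 0.21, with 5.99, 6.08 and 6.05 under DMSO and 5.94, 5.88 and 6.05 under TMP195. A dimmer second probe set of Rpa3 gave a gap of 0.38 between DMSO tumour 2 and TMP195 tumour 2 where the first gave 0.21. Fen1, the nuclease that trims the flaps of lagging-strand fragments, had the least precise difference, -0.13 ± 0.31 (SE). It read 7.04, 8.11 and 7.41 under DMSO and 7.38, 6.97 and 7.81 under TMP195, so DMSO tumour 1 was nearly as low as TMP195 tumour 2. The sign of Fen1 turned without DMSO tumour 2 (0.16), and without TMP195 tumour 2 (0.072). Lig1, the ligase that joins these fragments, differed by -0.21 ± 0.20 (SE). The median of these 5 genes was -0.21, and it was -0.070 without DMSO tumour 2, -0.051 without TMP195 tumour 2, -0.37 without DMSO tumour 1 and -0.34 without TMP195 tumour 3.

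The genes of deoxynucleotide supply had the lowest median of the subgroups, -0.37 over 3 genes, a rank that was not kept in every alternative. Tyms, thymidylate synthase, which makes the thymidine nucleotide used only in DNA, had the smallest p of the 38 genes. It averaged 7.66 ± 0.17 (SD, n = 3) under DMSO and 7.27 ± 0.30 (SD, n = 3) under TMP195. By tumour it read 7.54, 7.85 and 7.57 under DMSO and 7.36, 6.94 and 7.52 under TMP195. The groups did not overlap, although DMSO tumour 1 and TMP195 tumour 3 nearly met. The difference was -0.38 with a 95% interval of -0.79 to 0.02, or 0.766-fold, and limma gave an unadjusted p of 0.0605 and an adjusted p of 1.00. It was -0.28 once DMSO tumour 2 was dropped, -0.22 once TMP195 tumour 2 was dropped and -0.12 once both were. Rrm2, the regulated small subunit of ribonucleotide reductase, read 8.64, 9.14 and 8.55 under DMSO and 8.48, 7.89 and 8.85 under TMP195, with TMP195 tumour 3 above DMSO tumours 1 and 3. Rrm1, the large subunit, read 8.96, 9.50 and 8.97 under DMSO and 9.08, 8.55 and 9.16 under TMP195, a difference of -0.22 ± 0.21 (SE). The subgroup median was -0.19 without DMSO tumour 2 and -0.11 without TMP195 tumour 2. In the latter setting the medians of licensing (-0.16) and the helicase (-0.15) were lower. With array weights the median of nucleotide supply was -0.090, against -0.16 for licensing and -0.11 for the helicase.

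Other genes of the same pathways, listed by function, were compared next. Of 38 further replication genes, 27 had lower means under TMP195 and 11 higher, with a median of -0.087, and limma passed 0 of them at an adjusted p of 0.05 and 0 at an unadjusted p under 0.05. Of these, 19 shared the pair of extremes, highest in DMSO tumour 2 and lowest in TMP195 tumour 2. Atad5, which takes the clamp off DNA, differed by -0.28 ± 0.14 (SE), Chaf1b, of the histone chaperone that follows the fork, by -0.35 ± 0.20 (SE), Timeless, of the fork protection complex, by -0.33 ± 0.21 (SE), and the checkpoint mediator Clspn by -0.29 ± 0.19 (SE). The remaining origin recognition genes, named after their values were seen, did not share the pair of extremes, and Orc2, Orc3, Orc4 and Orc5 had differences of -0.02, -0.03, 0.03 and -0.07.

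Further nucleotide synthesis genes were measured for 27 of 29 named. Their median was -0.068, with 23 lower and 4 higher, and 11 of the 27 shared the pair of extremes. Limma passed 0 of the 27 at an adjusted p of 0.05 and 0 at an unadjusted p under 0.05. The 4 with the smallest p were Nme2, a nucleoside diphosphate kinase (-0.24 ± 0.14, SE), Shmt1, of folate metabolism (-0.37 ± 0.22, SE), Samhd1, which breaks deoxynucleotides down (-0.16 ± 0.11, SE), and Tk1. Tk1, thymidine kinase, salvages thymidine beside the synthesis by Tyms. Its difference was 0.73 ± 0.54 (SE), and it was 1 of 4 of these 27 genes that were highest in TMP195 tumour 2, where 12 were lowest. Tk1 read 9.83 there, with 8.14, 7.77 and 7.43 under DMSO and 7.57 and 8.13 in TMP195 tumours 1 and 3. In TMP195 tumour 2 Tk1 thus lay 2.06 above the median of the other tumours, where Tyms lay at -0.61. The mitotic gene Birc5, named after its values were seen and placed by the RefSeq gene order near Tk1 on chromosome 11 with 1 gene starting between them, also lay above the other tumours there, by 0.76.

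Regulators of the step from G1 to S phase were measured for 30 of 31 genes, with 22 lower, 8 higher and a median of -0.064. The pair of extremes was shared by 10 of the 30. Among all 30, limma passed 0 at an adjusted p of 0.05 and 0 at an unadjusted p under 0.05. Those of smallest p were Tfdp2, a partner of E2F factors (0.17 ± 0.09, SE, with every TMP195 tumour above every DMSO tumour), the cyclin gene Ccnd1 (0.42 ± 0.24, SE), the cell cycle transcription factor gene Mybl2 (-0.38 ± 0.24, SE) and Rbl1, a relative of the retinoblastoma gene (-0.14 ± 0.10, SE). Tfdp2 was the 1 gene of these 30 with all TMP195 tumours above all DMSO tumours, which held for 692 of all 19937 genes. The reverse order held for 1 of the 30 and for 640 of all genes. Ccnd1 read 10.62 in TMP195 tumour 2, and 9.71, 9.54, 9.63, 9.69 and 9.82 under DMSO (tumours 1 to 3) and TMP195 tumours 1 and 3. The cell cycle inhibitor gene Cdkn2a, named after its values were seen, stood at 7.33 in TMP195 tumour 2, and no other tumour was above 5.89. E2f1 itself, also named after its values were seen, read 5.92, 6.40 and 5.85 under DMSO and 5.92, 6.03 and 6.14 under TMP195, so it was highest in DMSO tumour 2 but not lowest in TMP195 tumour 2.

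Mitotic genes were compared in the same way. Of 19 measured, 15 were highest in DMSO tumour 2 and lowest in TMP195 tumour 2, and their median difference was -0.22. In TMP195 tumour 3 their median deviation from the other tumours was 0.26, and that of the 38 genes was 0.16. The exception in direction was Birc5, the 1 mitotic gene with a higher mean under TMP195. Without DMSO tumour 2 the medians were -0.0072 for the further replication genes, 0.0091 for the further nucleotide synthesis genes, -0.014 for the G1 to S regulators and -0.072 for the mitotic genes. Dropping TMP195 tumour 2 gave -0.031, -0.047, -0.030 and -0.011 in the same order of lists.

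Markers of the cell types in a whole tumour were set beside these values. The 10 luminal epithelial markers, among them Krt8, Krt18 and Epcam, had a mean between 10.1 and 10.2 in every tumour, and their median deviation was 0.07 in DMSO tumour 2 and -0.01 in TMP195 tumour 2. Their single differences between the groups ran from -0.48 to 0.23, with 5 lower and 5 higher. DMSO tumour 2 differed from the rest in its skeletal muscle markers: all 10 were highest there, with a mean of 7.83, and the other 5 tumours had means from 4.67 to 5.07. All 9 measured adipocyte markers had lower means under TMP195. Their mean was 7.0, 5.95 and 8.43 under DMSO (tumours 1 to 3) and 7.76, 4.84 and 5.95 under TMP195 (tumours 1 to 3), so that the 3 tumours with the least adipocyte transcript were the pair of extremes and TMP195 tumour 3. The 6 fibroblast markers had their lowest means in the same pair of tumours, 9.42 in DMSO tumour 2 and 9.34 in TMP195 tumour 2, and reached 10.14 in DMSO tumour 3. Lower means under TMP195 were found for 3 of 6 markers of myoepithelium, 3 of 7 of T cells, 3 of 4 of B cells and 1 of 6 of endothelium. Those counts were 10 of 10 for muscle and 5 of 6 for fibroblasts, and both depended on single tumours. Without DMSO tumour 2, 3 of the 10 muscle markers were lower, with a median difference of 0.086. Of the 6 fibroblast markers, 1 was lower without DMSO tumour 3 (median 0.081) and 2 without TMP195 tumour 2 (median 0.097). Macrophage markers also had lower means under TMP195 in 10 of 10, with a median difference of -0.14, and their mean ran from 7.91 in TMP195 tumour 3 to 8.29 in DMSO tumour 3. DMSO tumour 2 also had the lowest mean of any tumour for markers of myoepithelium (7.21), T cells (4.12) and endothelium (6.59). The T cell mean was highest in TMP195 tumour 2 (4.66). Limma passed 0 of the markers at an adjusted p of 0.05. At an unadjusted p under 0.05 it gave 1 of 10 luminal, 1 of 9 adipocyte and 1 of 10 macrophage markers, each lower under TMP195. The other marker lists had 0, and the share over all genes was 2.52%. The part of these cell types in the replication gene levels was not tested.

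**Figure D4:**
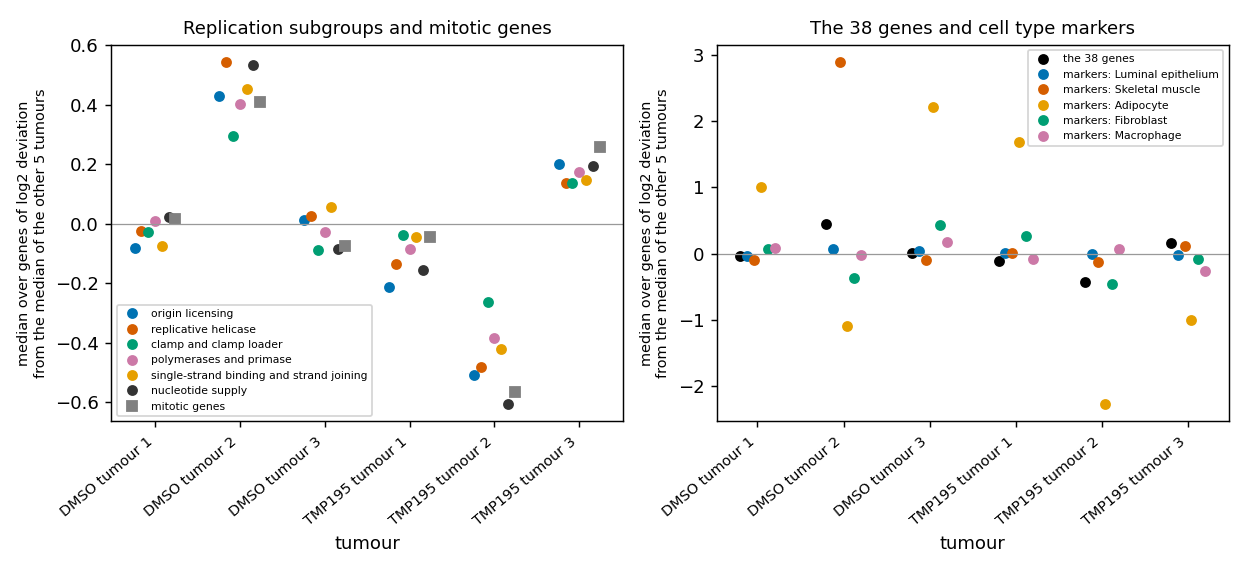
Median log2 deviation of each gene list from the median of the other 5 tumours, by tumour: the replication subgroups and mitotic genes (left) and the 38 genes with cell type markers (right, wider axis). All subgroups are above 0 in DMSO tumour 2 and TMP195 tumour 3 and below 0 in TMP195 tumour 2, luminal markers stay near 0, and muscle markers are far above 0 in DMSO tumour 2.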

How the data were processed

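Whole-tumour RNA from 6 mice was measured on Affymetrix arrays. The deposited values are probe set intensity; the submitters' processing notes name RMA and Affymetrix Power Tools without versions. The values were taken as linear, since they run from 0.482 to 8873 with array medians of 44.8 to 46.4; their scale is not stated. RMA as usually run quantile normalizes arrays, which would hide a shift of most genes. Probe sets were named through the platform annotation, and 21784 of 27359 had 1 gene symbol. Groups and numbers came from the sample titles. For 19937 genes, log2 of the deposited intensity entered limma 3.58.1 under R 4.3.3 (lmFit, eBayes, TMP195 minus DMSO, two-sided, Benjamini-Hochberg over all genes). SE and intervals are moderated. The code was first tested on simulated data. With 3 tumours per group the number of arrays limits precision. Python 3.11.15, pandas 2.3.3 and matplotlib 3.10.9 made tables and plots. The genes, lists, alternatives and naming rule (per subgroup, the smallest p, extreme levels or ranges, and opposing signs; up to 4 by p of other lists) were chosen with earlier results of these data known. Genes named outside it are marked. The alternatives comprised a replicate block, median centring, cyclic loess, an intensity filter, the mean of probe sets, an offset of 16, a trended robust prior, array weights and leaving out each tumour. Protein sequences were not used here.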

Additional observations from a re-analysis of the deposited data

How the results depend on the processing

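All 38 genes kept a lower mean under TMP195 with median centring, cyclic loess, the mean of probe sets and the offset of 16. They also did so without DMSO tumour 1, DMSO tumour 3, TMP195 tumour 1 or TMP195 tumour 3. The mean of probe sets could change only Pcna and Rpa3. The replicate block, the trended robust prior and the filter at the 30th percentile of intensity could not change these differences. The block is balanced, the prior alters only variances, and none of the 38 genes fell below the filter. No alternative gave any gene an adjusted p under 0.05 in limma, and unadjusted p under 0.05 was reached by 243 to 938 genes. The replicate block gave the 38 genes a median of -0.213 and 397 genes at an unadjusted p under 0.05. Same-numbered tumours had deviations that correlated at -0.212, -0.0627 and -0.097 across genes, and differently numbered ones at -0.182 to 0.34. With 3 tumours per group these values cannot show whether the numbers pair the tumours, and the labels state no pairing. Leaving out single tumours, the count of lower genes ran from 34 to 38 and the median from -0.338 to -0.0910. By subgroup it ran from -0.446 to -0.138 for licensing, -0.460 to -0.114 for the helicase, -0.232 to -0.0466 for the clamp and loader, -0.285 to -0.0621 for polymerases, -0.373 to -0.0515 for single-strand binding and joining, and -0.508 to -0.113 for nucleotide supply. Of single genes, Rfc3, Rfc4, Pola2, Pold1, Fen1 and Orc6 turned, running from -0.148 to 0.00657, from -0.303 to 0.0177, from -0.295 to 0.0156, from -0.246 to 0.0108, from -0.373 to 0.159 and from -0.141 to 0.0767. Array weights turned Rfc4 0.021, Pola2 0.033, Fen1 0.085, Orc6 0.080. With both tumours numbered 2 left out, chosen after seeing the data, 16 genes were lower, the median was 0.025, and the subgroup medians were 0.011 (licensing), 0.0015 (helicase), 0.034 (clamp and loader), 0.061 (polymerases), 0.067 (single-strand binding and joining) and 0.069 (nucleotide supply). The genes that turned were Mcm2 0.057, Mcm3 0.090, Mcm4 0.047, Mcm5 0.016, Mcm7 0.018, Cdc6 0.037, Cdc45 0.032, Pcna 0.011, Rfc2 0.056, Rfc3 0.072, Rfc4 0.17, Pola1 0.070, Pola2 0.15, Prim1 0.10, Pold1 0.079, Pold2 0.052, Rpa1 0.067, Fen1 0.37, Lig1 0.097, Orc6 0.17, Rrm1 0.16, Rrm2 0.069. That setting leaves 2 tumours per group. The cause of these turns beyond the tumours left out was not tested.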
